A study of Homo sapiens with 6 samples.

Results

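Transcript levels of 10 genes of collagen modification were examined in PC3, an established cell line from a bone metastasis of human prostate cancer. They were the lysyl oxidase genes LOX, LOXL2, LOXL3 and LOXL4, the lysyl hydroxylase genes PLOD1, PLOD2 and PLOD3, the prolyl 4-hydroxylase genes P4HA1 and P4HA2, and SERPINH1, which encodes the collagen chaperone HSP47. The 10 members were found by symbol among the 62700 genes of the deposited table, and all 10 were among the 24325 genes with enough counts to be tested. The cells carried an shRNA (a short hairpin RNA that lowers a matching messenger RNA) against TTC3, the gene of an E3 ubiquitin ligase, or a control shRNA that the labels abbreviate NC. There were 3 libraries with the TTC3 shRNA and 3 with the control shRNA, made strand-specifically from RNA after removal of rRNA. The labels give the genotype as TTC3 knockdown or WT and do not say whether more than 1 hairpin, clone or culture was used, so the p-values speak of the spread among the libraries alone, and that spread may be technical.

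Collagen is modified at several steps before and after it leaves the cell. Prolyl 4-hydroxylases and lysyl hydroxylases act in the endoplasmic reticulum and need iron, oxygen, 2-oxoglutarate and ascorbate. The prolyl hydroxylation stabilises the triple helix, HSP47 binds the folded procollagen, and lysyl hydroxylation of the chain ends sets the type of cross-link that can form. Lysyl oxidases are copper enzymes that act outside the cell and oxidise lysines of collagen and elastin, which then cross-link. Several genes of this set are widely described targets of the hypoxia-inducible factors. Which members are such targets in these cells was not tested. In tumours these enzymes are studied for their part in matrix stiffness and metastasis.

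The targeted gene was checked first. TTC3 was at 228, 183 and 178 CPM (counts scaled to a common TMM-adjusted library size) in TTC3 shRNA replicates 1, 2 and 3, against 695, 684 and 680.3 CPM in the control shRNA replicates. Libraries held 143246356 to 155526861 estimated counts. Across all genes tested, 33.6% passed the test (edgeR quasi-likelihood, Benjamini-Hochberg adjusted p below 0.05, used throughout), 15.7% higher and 17.8% lower in TTC3 shRNA cells. That split was 3827 higher and 4338 lower, 2518 and 5356 with scaling by library totals alone, and 3070 and 5242 with a transcript length trend removed. The median log2 fold change of all genes was -0.15 and -0.14 in those alternatives, against -0.02. TTC3 shRNA replicate 1 stood apart, differing from replicates 2 and 3 by 60.2 and 79.7 times sampling noise (median chi-square per gene). This ratio was 9.89 between replicates 2 and 3 and 4.28 to 5.99 between controls. These ratios used count totals without TMM factors, which were 1.00, 0.948 and 0.924 in TTC3 shRNA replicates 1, 2 and 3. Part of the ratios may therefore reflect scaling. Mitochondrial genes took 6.29%, 3.73% and 3.54% of counts in TTC3 shRNA replicates 1, 2 and 3, and 5.29% to 5.53% in control libraries. Of 5 epithelial markers KRT18 (log2 fold change 0.53, adjusted p = 0.0392) and EPCAM (0.32, adjusted p = 0.0420) rose, CDH1 fell by 1.72 (adjusted p = 9.59e-04), and KRT8 and KRT19 did not pass (0.01 and 0.49, adjusted p = 0.934 and 0.0653). With scaling by library totals none of the 5 passed as higher and 1 as lower. Of 8 luminal secretory genes, KLK2 and KLK3 had no counts in any library. Of the 6 tested, 1 rose, 3 fell and 2 did not pass, beside the 33.6% called among all genes. The summed level of the list was 553, 688 and 719 CPM in TTC3 shRNA libraries and 410, 430 and 424 CPM in control libraries.

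Of the 10 members, 4 fell, 3 rose and 3 did not pass. Those that fell were LOX, PLOD2, P4HA1 and P4HA2, and those that rose were LOXL2, PLOD3 and SERPINH1. LOXL3, LOXL4 and PLOD1 did not pass. Among all genes tested 33.6% were called, and the groups did not overlap for 50.3% of genes, against 7 of the 10 members. The median log2 fold change was -0.0038 for the members and -0.02 for all genes tested, with members on both sides of 0.

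**Figure D1:**
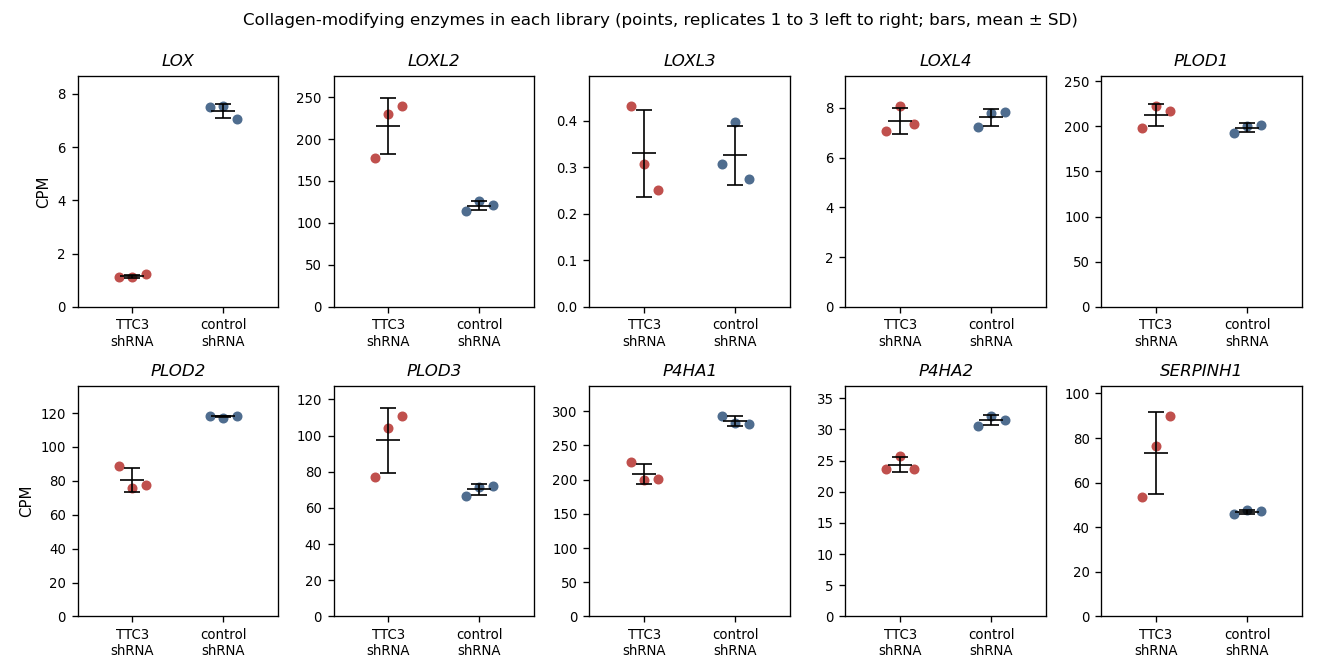
CPM of each of the 10 genes in each library, with TTC3 shRNA libraries left and control shRNA libraries right in every panel; bars give the mean ± SD of 3 libraries. All TTC3 shRNA libraries lie below all controls for LOX, PLOD2, P4HA1 and P4HA2 and above them for LOXL2, PLOD3 and SERPINH1.

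The lysyl oxidases moved in opposite directions. LOX, the founding member of the family (hg38 chromosome 5, 122063195 to 122078360, minus strand), was at 1.13, 1.11 and 1.22 CPM in TTC3 shRNA replicates 1, 2 and 3, against 7.51, 7.54 and 7.07 CPM in the controls. These values rested on 171, 152 and 175 counts in TTC3 shRNA libraries and 1203, 1217 and 1056 counts in control libraries. Every TTC3 shRNA library was below every control, the TTC3 shRNA mean was 15.7% of control, and LOX fell by 2.67 ± 0.11 on the log2 scale (SE, adjusted p = 1.53e-05). LOX was the one member past the test and at least 2-fold lower, as were 8.55% of all genes tested. LOX was also the only one of the 10 that passed a test against a fold of 1.5. The annotated span of LOX overlaps SRFBP1 on the opposite strand, at 18.55 CPM in TTC3 shRNA and 19.28 CPM in control cells. Strand use in the counting is not known, so part of the LOX counts may belong to SRFBP1.

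LOXL2, a lysyl oxidase that acts on the basement membrane collagen IV (chromosome 8, 23297189 to 23425328), was at 177, 229.9 and 239 CPM in TTC3 shRNA libraries, against 115, 126 and 122 CPM in control libraries. All TTC3 shRNA libraries were above all controls, with replicate 1 the lowest of the 3. LOXL2 rose 1.78-fold (log2 fold change 0.84 ± 0.12, SE, adjusted p = 0.00237). The annotated span of LOXL2 overlaps ENTPD4 on the same strand, which fell by 0.43 on the log2 scale (adjusted p = 0.00915), and the antisense RNA LOXL2-AS1, at 0.00221 CPM in TTC3 shRNA and 0.152 CPM in control cells.

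LOXL4 and LOXL3 were low and did not pass. LOXL4, a lysyl oxidase with scavenger receptor domains (chromosome 10, 98247690 to 98268250), was at 7.05, 8.07 and 7.35 CPM in TTC3 shRNA libraries and 7.22, 7.80 and 7.84 CPM in control libraries. The groups overlapped, with a log2 fold change of -0.03 ± 0.10 (SE, adjusted p = 0.865). LOXL3 (chromosome 2, 74532414 to 74555690) was barely detected, at 65, 42 and 36 counts in TTC3 shRNA libraries and 49, 64 and 41 counts in control libraries (log2 fold change 0.02 ± 0.29, adjusted p = 0.969). With so few counts the LOXL3 estimate had the widest error of the 10, and LOXL3 overlaps DOK1 and HTRA2 on the opposite strand.

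Per length of transcript, LOXL2 was the highest of the 4 lysyl oxidase members, a comparison that leaves out LOXL1, the remaining gene of the family. LOXL2 took 96.2% ± 0.520 of the summed CPM per kilobase of the 4 genes in TTC3 shRNA cells, against 90.3% ± 0.212 in control cells (SD, n = 3 each). LOX took 0.371% ± 0.0554 and 3.92% ± 0.241 of that sum, and LOXL4 3.29% ± 0.404 and 5.54% ± 0.110, each in TTC3 shRNA and then control cells. The summed level of the 4 genes was 52.3, 67.3 and 69.7 CPM per kilobase in TTC3 shRNA libraries, against 35.8, 39.3 and 37.9 in controls. This sum was higher in every TTC3 shRNA library than in any control, while LOX was lower.

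Among the lysyl hydroxylases, one gene fell, one rose and one did not pass. PLOD2, which encodes the hydroxylase of the collagen telopeptides (chromosome 3, 146069440 to 146163653, minus strand), was at 88.9, 75.7 and 77.6 CPM in TTC3 shRNA libraries and 118, 117 and 118 CPM in control libraries. No library overlapped between the groups, and PLOD2 fell by 0.55 ± 0.08 on the log2 scale (SE, adjusted p = 0.00215). The TTC3 shRNA mean was 68.4% of control.

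PLOD3, which also adds glucose to collagen, lies on chromosome 7 (101205977 to 101218420). It was at 76.9, 104 and 111 CPM in TTC3 shRNA libraries and 66.8, 71.6 and 72.3 CPM in control libraries. It was higher in 3 of 3 TTC3 shRNA libraries, with replicate 1 just above the controls, and rose by 0.47 ± 0.13 on the log2 scale (SE, adjusted p = 0.0335). This call was lost without any single library other than TTC3 shRNA replicate 1 (adjusted p = 0.0906 to 0.120). It was also lost with scaling by library totals (adjusted p = 0.0594). PLOD3 overlaps ZNHIT1 on the opposite strand, which rose by 0.61 (adjusted p = 0.0427). Strand use in the counting is not given in the sources used here, so part of either value may belong to the other gene.

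PLOD1, which hydroxylates helical lysines (chromosome 1, 11934205 to 11975538), was at 198, 222 and 216 CPM in TTC3 shRNA libraries and 192, 201 and 201 CPM in control libraries. The groups overlapped and the difference did not pass (log2 fold change 0.10 ± 0.07, SE, adjusted p = 0.294). Without TTC3 shRNA replicate 1 it passed (log2 fold change 0.16, adjusted p = 0.00583). Of the lysyl hydroxylase sum per kilobase, PLOD2 took 18.9% ± 2.92 in TTC3 shRNA cells and 28.1% ± 0.676 in control cells. PLOD3 took 25.5% ± 3.28 and 18.9% ± 0.418 of it, each in TTC3 shRNA and then control cells (SD, n = 3 each). The sum itself was 121, 134 and 135 CPM per kilobase in TTC3 shRNA libraries, against 124, 128 and 129 in controls, and the groups overlapped.

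Of the catalytic subunit genes of prolyl 4-hydroxylase, P4HA1 and P4HA2 fell. The remaining one, P4HA3, was at 2.97, 2.82 and 2.42 CPM in TTC3 shRNA libraries and 2.41, 2.71 and 2.64 CPM in control libraries, which overlapped (log2 fold change 0.08, adjusted p = 0.675). P4HA1, the main catalytic subunit in most cell types (chromosome 10, 73007217 to 73096974, minus strand), was at 226, 199 and 201 CPM in TTC3 shRNA libraries and 293, 283 and 281 CPM in control libraries. All TTC3 shRNA libraries were below all controls, by 0.45 ± 0.07 on the log2 scale (SE, adjusted p = 0.00373). P4HA2, the second catalytic subunit (chromosome 5, 132191838 to 132295315, minus strand), was at 23.6, 25.7 and 23.7 CPM in TTC3 shRNA libraries, against 30.6, 32.2 and 31.5 CPM in the controls. It fell by 0.37 ± 0.07 (SE, adjusted p = 0.00622). The summed level of P4HA1 and P4HA2 was 85.8 ± 5.22 CPM per kilobase in TTC3 shRNA cells and 117 ± 2.27 in control cells, and P4HA1 took 89.1% ± 1.01 and 89.7% ± 0.431 of it. The annotated span of P4HA2 overlaps PDLIM4 and SLC22A4 on the opposite strand, both of which rose (log2 fold changes 0.99 and 0.65, adjusted p = 0.00240 and 0.00513).

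SERPINH1 (chromosome 11, 75562056 to 75572783) was at 53.5, 76.7 and 90.0 CPM in TTC3 shRNA libraries and 45.9, 47.6 and 47.1 CPM in control libraries. It was above every control in 3 of 3 TTC3 shRNA libraries and spread widely among them. SERPINH1 rose by 0.65 ± 0.17 on the log2 scale (SE, adjusted p = 0.0270). The call was lost without any single library other than TTC3 shRNA replicate 1 (adjusted p = 0.0631 to 0.0941).

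**Figure D2:**
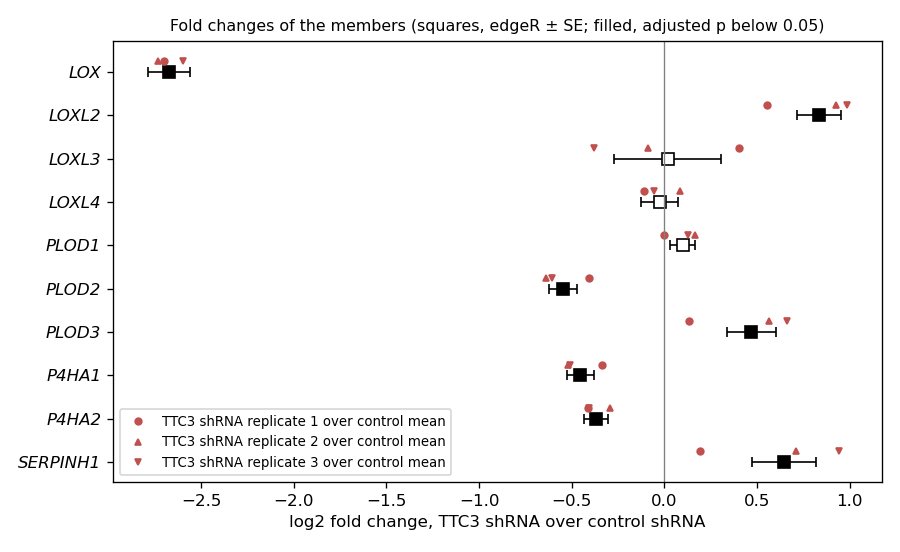
Log2 fold change of TTC3 shRNA over control shRNA for each gene; squares give the edgeR estimate ± SE (filled where the adjusted p was below 0.05) and red symbols each TTC3 shRNA library over the control mean. LOX lies near -2.67 in all 3 libraries, while replicate 1 lies nearest to 0 for LOXL2, PLOD2, PLOD3, P4HA1 and SERPINH1.

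The size of the change differed among the TTC3 shRNA libraries. For 5 of the 7 members past the test, replicate 1 was the nearest to the control mean. SERPINH1, for example, was 0.19, 0.71 and 0.94 above the control mean on the log2 scale in TTC3 shRNA replicates 1, 2 and 3. LOX was an exception, at -2.70, -2.73 and -2.60, and P4HA2 was another, at -0.41, -0.29 and -0.41. TTC3 itself was at -1.59, -1.91 and -1.95 in the same libraries. Longer transcripts were lower in these libraries, with log2 slopes of -0.03, -0.17 and -0.20 for each doubling of length over 11324 genes. With that trend removed 7 members still passed, LOX at -2.62, PLOD2 at -0.57, P4HA1 at -0.52, P4HA2 at -0.45, LOXL2 at 0.83, PLOD3 at 0.42 and SERPINH1 at 0.54. The part of the low TTC3 level and of RNA composition in the differences among replicates was not tested.

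The order of the genes by level per length also changed between the groups. In TTC3 shRNA cells P4HA1 (76.4 ± 5.46 CPM per kilobase) and PLOD1 (72.2 ± 4.26) led and did not differ beyond their spread. LOXL2 followed at 60.7 ± 9.38, then PLOD3 at 33.3 ± 6.17, SERPINH1 at 30.9 ± 7.77 and PLOD2 at 24.4 ± 2.15. The TTC3 shRNA libraries of PLOD3, SERPINH1 and PLOD2 all overlapped with each other. In control cells the order was P4HA1 at 105 ± 2.52, PLOD1 at 67.4 ± 1.70, PLOD2 at 35.7 ± 0.169, LOXL2 at 34.0 ± 1.63, PLOD3 at 24.1 ± 1.02 and SERPINH1 at 19.7 ± 0.376 (SD, n = 3 each). P4HA2, LOXL4, LOX and LOXL3 came last in that order in both groups. LOX was at 0.231 ± 0.0115 in TTC3 shRNA cells and 1.48 ± 0.0525 CPM per kilobase in control cells. PLOD2 and LOXL2 changed places in control cells when the longest transcript set the length (31.6 and 34.0 CPM per kilobase).

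Promoters of the 4 members that fell are shown because these genes changed in the same direction; for LOX the first of its 3 table entries is given. Each runs from 250 bases before to 50 bases after the RefSeq start on GRCh38.p14, 5′ to 3′ on the gene's own strand, with capitals on every ACGTG or GCGTG of either strand, the core letters bound by hypoxia-inducible factors.
LOX, chr5:122078210-122078509: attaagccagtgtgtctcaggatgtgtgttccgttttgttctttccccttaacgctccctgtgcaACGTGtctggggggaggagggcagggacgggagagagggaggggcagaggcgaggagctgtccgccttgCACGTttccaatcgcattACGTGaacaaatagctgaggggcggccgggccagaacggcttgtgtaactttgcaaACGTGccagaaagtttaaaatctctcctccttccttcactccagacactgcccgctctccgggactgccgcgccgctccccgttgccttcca
PLOD2, chr3:146161135-146161434: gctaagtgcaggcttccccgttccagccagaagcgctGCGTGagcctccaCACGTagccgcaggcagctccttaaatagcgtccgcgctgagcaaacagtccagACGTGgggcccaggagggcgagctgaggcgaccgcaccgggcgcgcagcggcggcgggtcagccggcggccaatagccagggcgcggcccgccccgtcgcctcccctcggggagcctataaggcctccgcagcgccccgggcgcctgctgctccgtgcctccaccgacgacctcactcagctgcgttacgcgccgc
P4HA1, chr10:73096817-73097116: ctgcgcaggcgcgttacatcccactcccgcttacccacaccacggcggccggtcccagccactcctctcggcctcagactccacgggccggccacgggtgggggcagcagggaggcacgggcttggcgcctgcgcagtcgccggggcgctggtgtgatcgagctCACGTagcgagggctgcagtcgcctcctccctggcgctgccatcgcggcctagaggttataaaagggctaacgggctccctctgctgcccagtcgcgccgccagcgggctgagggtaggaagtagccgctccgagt
P4HA2, chr5:132227042-132227341: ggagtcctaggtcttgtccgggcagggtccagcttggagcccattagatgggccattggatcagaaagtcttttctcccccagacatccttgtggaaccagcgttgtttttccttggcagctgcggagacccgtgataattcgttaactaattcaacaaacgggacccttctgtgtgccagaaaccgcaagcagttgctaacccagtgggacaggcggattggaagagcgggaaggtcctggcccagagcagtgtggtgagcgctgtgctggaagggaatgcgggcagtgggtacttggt

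The letters matched 4 times in this LOX promoter, 3 times in that of PLOD2, once in that of P4HA1 and not in that of P4HA2. Matches in the LOX promoter shown began 185, 116, 98 and 42 bases before the start. The other 2 LOX promoters overlap each other and hold the same 2 matches. The P4HA2 window, like that of PLOD2, lies inside the annotated span of the gene, which for P4HA2 ends at 132295315. Starts further upstream in these genes were not scanned. Of all 35116 RefSeq promoters of this length, 48.4% held ACGTG or GCGTG, and 21.4% held ACGTG. None of the member promoters held the palindrome CACGTG, the E-box, which contains ACGTG on both strands and was in 7.26% of all promoters. Among members that did not fall, SERPINH1 had matches in both of its promoters, which overlap and share a match. PLOD1 had 2, LOXL3 had 1 in 1 of its 2 promoters, and LOXL4 and PLOD3 had none. LOXL2 had no entry in the promoter table. A match describes letters in this window and not a bound site.

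Transcript estimates were examined because PLOD2, P4HA1 and P4HA2 each make alternative splice forms. Of the 53805 transcripts tested 3.99% passed, with 2.6% lower, and of the 28 tested transcripts of the 10 genes LOX-201 fell and LOXL2-201 rose. With DESeq2 1 rose and 7 fell, without TTC3 shRNA replicate 1 in edgeR 3 rose and 5 fell, and without any other single library 1 fell and no other passed. LOX-201, which held 93.1% to 100% of the LOX counts in each library, fell by 2.71 ± 0.18 on the log2 scale (SE, adjusted p = 0.00427). LOXL2-201, the one LOXL2 transcript in the table, rose by 0.81 ± 0.12 (SE, adjusted p = 0.0335), and this call was lost without any single library other than TTC3 shRNA replicate 1 (adjusted p = 0.0964 to 0.147). Transcripts of a gene overlap heavily, which makes the estimate for any one of them uncertain.

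The PLOD2 exon that separates its long and short forms and the alternative P4HA1 exons, of which a transcript holds one, are shown 5′ to 3′ from GENCODE 29 transcripts. Capitals mark positions at which the P4HA1 exons differ, 28 of 71.
PLOD2-201 exon 14 of 20, chr3:146077862-146077924, minus strand: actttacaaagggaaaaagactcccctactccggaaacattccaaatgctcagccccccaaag
P4HA1-202 exon 9 of 15, chr10:73044981-73045051, minus strand: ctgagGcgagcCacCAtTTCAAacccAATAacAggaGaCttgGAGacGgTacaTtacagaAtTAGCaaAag
P4HA1-203 exon 9 of 15, chr10:73043887-73043957, minus strand: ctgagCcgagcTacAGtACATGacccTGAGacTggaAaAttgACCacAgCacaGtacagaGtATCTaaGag

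Splice form shares varied more between replicates than between groups for PLOD2. The share of counts from transcripts with the 63-base PLOD2 exon was 56.1%, 29.9% and 30.2% in TTC3 shRNA libraries and 81.6%, 39.9% and 34.7% in control libraries. The ranges overlapped, and replicate 1 stood far above the others in both groups. At each replicate number the TTC3 shRNA share was below the control share. The difference of -13.3 percentage points had an exact two-sided permutation p of 0.5, from a test that did not pair libraries. That p was 0.6 adjusted over 3 shares, and 0.1 is the smallest that 3 against 3 libraries allow. Without control replicate 1, and with TTC3 shRNA replicate 1 kept, the difference was 1.49 percentage points. The transcripts in these shares held 61.8% to 94.6% of the PLOD2 gene count in each library, and the rest, PLOD2-205 and transcripts without a match, is left out.

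P4HA1 used its alternative exons in nearly constant proportion. Transcripts with the P4HA1-202 exon took 58.7%, 60.2% and 59.2% of P4HA1 counts in TTC3 shRNA libraries and 56.6%, 60.5% and 55.5% in control libraries (exact permutation p = 0.4, 0.6 adjusted). P4HA1-202 was at 123 ± 8.92 and 166 ± 8.20 CPM, and P4HA1-203 at 78.2 ± 6.28 and 108 ± 8.17 CPM, in TTC3 shRNA and control cells (SD, n = 3 each). Neither transcript passed alone (adjusted p = 0.0538 and 0.0652), although in both every TTC3 shRNA library was below every control. Both passed with DESeq2 (adjusted p = 0.00100 and 0.00283) and once TTC3 shRNA replicate 1 was left out (adjusted p = 0.0140 and 0.0280). The less abundant P4HA1-205 held 3.54%, 2.38% and 2.43% of P4HA1 counts in TTC3 shRNA libraries and 5.68%, 4.71% and 3.97% in controls. Its log2 fold change of -1.24 did not pass (adjusted p = 0.0887). P4HA1-205 passed with DESeq2 (adjusted p = 0.00236) and once TTC3 shRNA replicate 1 was left out (adjusted p = 0.0250).

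For P4HA2 the share with the exon of transcript P4HA2-204 was 51.2% ± 1.62 in TTC3 shRNA cells and 52.8% ± 4.61 in control cells (exact permutation p = 0.6, 0.6 adjusted). Transcripts that hold this exon did not move alike in the estimates. P4HA2-203 was at 4.75, 1.79 and 2.36 CPM in TTC3 shRNA libraries and 9.64, 10.5 and 14.1 CPM in control libraries, and P4HA2-204 at 5.53, 10.7 and 8.52 CPM in TTC3 shRNA libraries and 3.33, 5.34 and 1.88 CPM in control libraries. The groups did not overlap for either, and neither passed (log2 fold changes -1.94 and 1.23, adjusted p = 0.0751 and 0.210). P4HA2-203 passed with DESeq2 (adjusted p = 3.90e-04) and once TTC3 shRNA replicate 1 was left out (adjusted p = 0.0149).

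**Figure D3:**
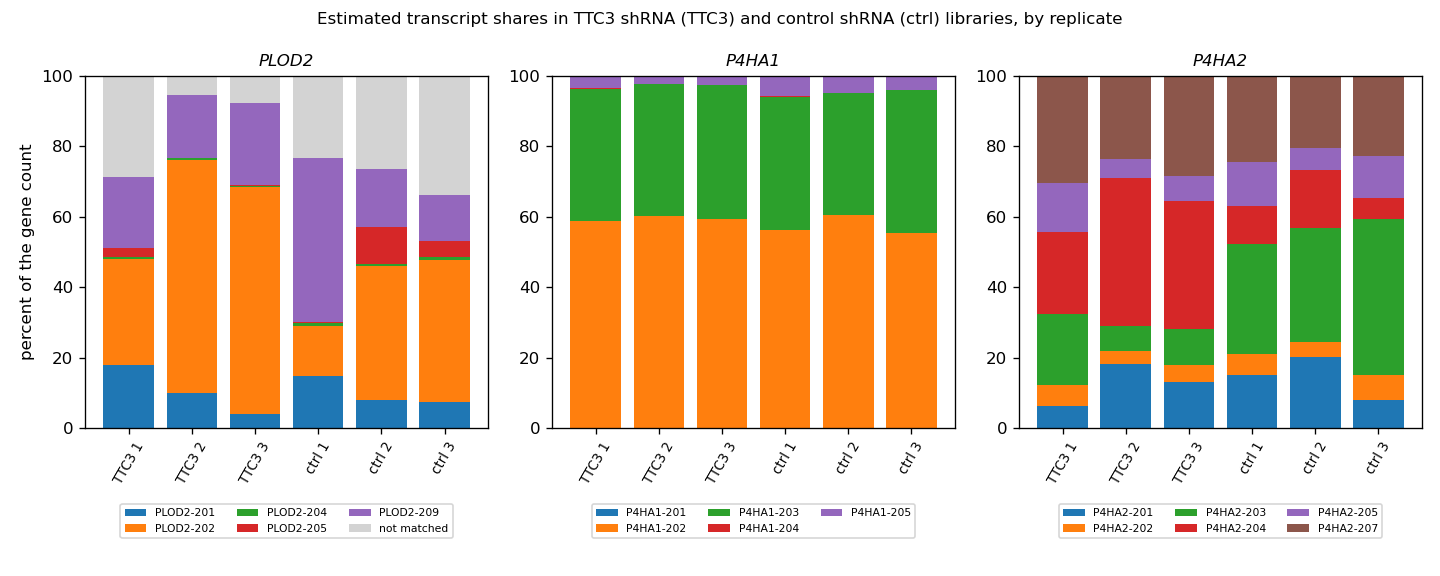
Share of the gene count held by each matched transcript of PLOD2, P4HA1 and P4HA2 in each library, as stacked percentages, with TTC3 shRNA libraries left of control libraries. The larger P4HA1 shares are alike in all libraries, while the small P4HA1-205 share is lower in every TTC3 shRNA library than in any control. PLOD2 shares differ most in control replicate 1, and the P4HA2-203 share is 12.4% on average in TTC3 shRNA cells and 35.9% in control cells.

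Other genes that hydroxylate, glycosylate and fold collagen were called about as often as genes at large. Of 14 tested, 3 rose, 1 fell and 10 did not pass, against 33.6% called among all genes, with a median log2 fold change of 0.12 (-0.01 with scaling by library totals). P3H3, of the prolyl 3-hydroxylase family, was at 19.2, 30.3 and 33.3 CPM in TTC3 shRNA libraries and 9.21, 10.6 and 10.4 CPM in control libraries (log2 fold change 1.46 ± 0.20, SE, adjusted p = 0.00212). CRTAP, a partner of prolyl 3-hydroxylase 1, and FKBP10, a prolyl isomerase that assists lysyl hydroxylation, rose by 0.31 and 0.35. LOXL1, the lysyl oxidase of elastic fibres, was at 27.9, 34.4 and 38.0 CPM in TTC3 shRNA libraries and 43.4, 44.5 and 44.1 CPM in control libraries. LOXL1 fell by 0.40 ± 0.11 (SE, adjusted p = 0.0325). P4HB, the protein disulfide isomerase that forms the prolyl 4-hydroxylase tetramer with P4HA1 or P4HA2, was at 700.3 ± 86.5 and 626 ± 6.42 CPM in TTC3 shRNA and control cells (SD, n = 3 each) and did not pass (adjusted p = 0.238).

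Procollagen processing and secretion genes split, with 4 of 14 tested higher and 5 lower (median 0.12, or -0.01 with scaling by library totals). Among all genes tested 15.7% rose and 17.8% fell. TGM2, a transglutaminase that cross-links matrix proteins, was at 302, 352 and 344 CPM in TTC3 shRNA libraries and 93.1, 96.0 and 96.0 CPM in control libraries (log2 fold change 1.81 ± 0.08, SE, adjusted p = 1.61e-05). PCOLCE2, which enhances the procollagen C-proteinase, rose by 1.52, while TLL1, a C-proteinase, fell by 0.92 and MIA2, of procollagen export, fell by 0.68.

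Substrates of these enzymes also split. Of 12 tested fibrillar collagen and elastic fibre genes, 4 rose and 5 fell (2 and 6 with scaling by library totals). The called share of all genes tested was 33.6%. COL5A1 was at 8.14, 10.9 and 11.1 CPM in TTC3 shRNA libraries and 1.27, 1.43 and 1.55 CPM in control libraries. COL1A1 was at 43.5, 82.6 and 101 CPM in TTC3 shRNA libraries and 18.3, 19.4 and 19.4 CPM in control libraries (log2 fold change 1.99 ± 0.28, SE, adjusted p = 0.00240). Its partner chain COL1A2 was near 0, at 0.139 ± 0.0806 and 0.0871 ± 0.0844 CPM in TTC3 shRNA and control cells. FBN1, the microfibril protein fibrillin-1, fell by 0.73 and COL11A2 by 1.26. Of 11 stromal fibroblast markers, which include COL1A1, the summed level was 105 to 162 CPM in TTC3 shRNA libraries and 43.4 to 45.1 CPM in control libraries. COL1A1 and the receptor PDGFRA (51.8 ± 3.18 and 16.1 ± 1.01 CPM) held most of it in TTC3 shRNA cells. Both passed as higher, LUM fell by 1.03 (adjusted p = 0.0209), and COL3A1 was at 7.32 ± 1.78 and 7.59 ± 0.354 CPM in TTC3 shRNA and control cells and did not pass (adjusted p = 0.847). Markers DCN, THY1, FAP and POSTN averaged at most 0.0689 CPM in either group. The part of such cells in these values was not tested.

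Genes that supply the enzymes' cofactors were compared from the same kind of list. As background, 33.6% of all genes tested were called. Of 7 copper handling genes tested, ATOX1, the copper chaperone of the secretory pathway, rose by 0.58 (adjusted p = 0.00291), CCS, the chaperone of superoxide dismutase, rose by 0.81 (adjusted p = 0.0119), and ATP7A, the pump that loads copper onto secreted enzymes such as LOX, fell by 0.63 (adjusted p = 0.00539). ATP7A was at 18.7, 14.4 and 14.9 CPM in TTC3 shRNA libraries, against 24.4, 25.1 and 24.6 CPM in the controls. Of 7 tested genes of ascorbate and iron supply 1 rose and 4 fell. SLC2A1, which also carries dehydroascorbate, fell by 1.71, the iron importer SLC11A2 fell by 0.73 and the ferritin chain FTH1 fell by 0.95, while the ferritin chain FTL rose by 0.55. Ferritin genes have many processed pseudogenes, so their values are uncertain.

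Many genes on a hypoxia response list, which holds none of the members, fell. Of 20 tested, 12 fell and the other 8 did not pass, with a median log2 fold change of -0.50 against -0.02 for all genes. The share of all genes tested that fell was 17.8%, and 15.7% rose. The median was the same with CA9, which had no counts in TTC3 shRNA libraries, at a bound set by 3 counts over the group. ADM, the vasodilator peptide adrenomedullin, was at 3.66, 5.02 and 5.86 CPM in TTC3 shRNA libraries and 40.3, 39.4 and 39.3 CPM in control libraries. VEGFA, the angiogenic growth factor, fell by 1.27 ± 0.07 (SE, adjusted p = 5.90e-05), and PFKFB4, a regulator of glycolysis, fell by 1.20 ± 0.08 (SE, adjusted p = 8.69e-05). SLC2A1 is on this list too. The glycolytic PGK1 fell by 0.45 (adjusted p = 0.00144), and LDHA, ENO1 and ALDOA, also of glycolysis, did not pass (log2 fold changes -0.04, 0.04 and 0.16, adjusted p = 0.716, 0.683 and 0.313). Of 15 other dioxygenases that use 2-oxoglutarate 1 rose, 3 fell and 11 did not pass, with a median of 0.03 (-0.09 with scaling by library totals). Among them KDM6B fell by 0.72 and HIF1AN, an inhibitor of hypoxia-inducible factors, rose by 0.28.

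**Figure D4:**
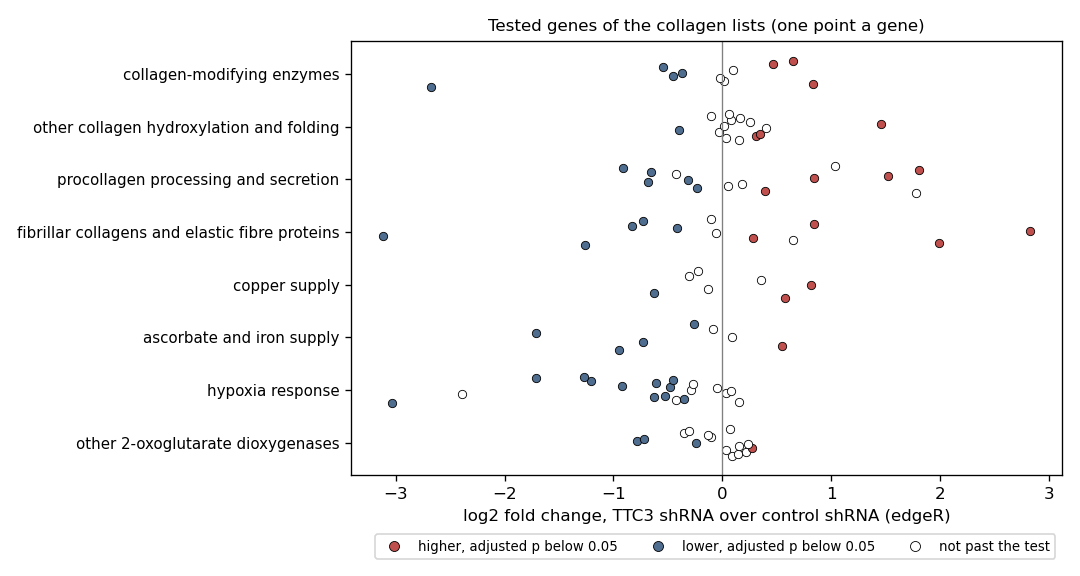
Log2 fold change of TTC3 shRNA over control shRNA for each tested gene with counts in both groups, by list, 1 point a gene; red and blue points passed the test as higher and lower. Members and collagen lists hold points on both sides of 0, while every hypoxia point that passed lies below 0.

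The genes nearest to LOX in pattern over the 6 libraries were TSPAN8, ICAM1 and CXCL1 among 11351 genes of at least 5 CPM. Distances were taken between centred log2 CPM values after 0.1 CPM was added to each, which narrows the change of a low gene. Those of TSPAN8, ICAM1 and CXCL1 from LOX were 0.0844, 0.117 and 0.195. TSPAN8, a tetraspanin, was at 6.77 ± 0.305 and 39.2 ± 1.34 CPM in TTC3 shRNA and control cells (SD, n = 3 each). For LOXL2, the largest rise, the nearest were HS1BP3, DCTN1 and MPP2 at distances of 0.0567, 0.0789 and 0.0894. DCTN1, a dynactin subunit, was at 188, 245 and 256 CPM in TTC3 shRNA libraries and 128, 130.3 and 131 CPM in control libraries, with the same low replicate 1 as LOXL2. All these genes share libraries and scaling with the members.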

How the data were processed

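The submitters' processing notes list Trim Galore, STAR and StringTie and, as the build, hg38. They give no version, and settings, annotation release and any use of strand in counting were not found in the labels. The authors deposited whole-number estimated counts, unscaled, for genes and for transcripts. Members, lists and the rule for named genes were chosen with earlier results of these data known. The rule took all members, up to 4 called genes of each other list by adjusted p, and the 3 genes nearest in pattern to LOX and to the largest rise. Overlapping genes, P4HA3, P4HB, COL1A2, COL3A1, PGK1, LDHA, ENO1, ALDOA, KRT8, KRT19, KLK2, KLK3 and the low stromal markers were chosen after their values were seen, and some genes that the rule gives are left out.

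Tests used the quasi-likelihood model of edgeR 4.0.16 under R 4.3.3 (filterByExpr with a minimum count of 10 and a total of 15, TMM factors of 0.924 to 1.05, glmQLFit, glmQLFTest) over 6 libraries without a block, and the procedure was tested on simulated data. Each SE is the log2 fold change divided by the root of F. Median chi-square per gene between replicates, from count totals without TMM factors, was 4.28 to 79.7 times sampling noise, so each library counted as 1 sample. Libraries held 143246356 counts or more, so counting error matters for rare genes such as LOXL3 and replicate spread for most others. Counting error also matters for LOX in TTC3 shRNA libraries, which held 152 to 175 LOX counts. Level per kilobase is CPM over the count-weighted transcript length. Positions and exons are from GENCODE 29 on GRCh38 (hg38), matched without version, and promoters from RefSeq on GRCh38.p14, with an entry for 9 of the 10 members. Alternatives were other scalings, filters, thresholds and tests (DESeq2 1.42.0, limma-voom 3.58.1), a replicate block, each library left out and a length trend removed (lowess, span 0.5).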

Additional observations from a re-analysis of the deposited data

How the results depend on the processing

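LOX kept its direction and its call under all 17 alternatives (log2 fold change -2.80 to -2.62). LOXL2, PLOD2, P4HA1 and P4HA2 kept their direction under all 17, and their calls under all but the test against a fold of 1.5. PLOD3 kept its direction but lost its call under 9 of 17, and SERPINH1 under 7 of 17. The count of 7 members past the test became 1 with the test against a fold of 1.5. The count of 8165 genes became 2033 with that test, 4082 at an adjusted p below 0.01, and 4546 to 13739 with 1 library left out. The highest came without TTC3 shRNA replicate 1, and of the other libraries left out only TTC3 shRNA replicate 3 (6300) stayed within 1.5 times the full count. The count of 2148 transcripts became 9143 with DESeq2, 1159 without a filter, and 141 (without control replicate 2) to 6765 (without TTC3 shRNA replicate 1) with 1 library left out, by over 1.5 times for each of the 6. LOXL3 turned lower with scaling by library totals (-0.10), with the length trend removed (-0.0035) and with some libraries left out (-0.21 to 0.19). PLOD1 log2 fold change was -0.030 with library totals. LOXL4 log2 fold change was -0.079 to 0.033 with 1 library left out. The PLOD2 exon share difference of -13.3 percentage points ranged over -22.0 to 1.49 with 1 library left out. In these the cause was not tested. Levels per kilobase moved for PLOD2, P4HA1, P4HA2 and SERPINH1 when the longest transcript set the length.

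Gene levels gave little sign of pairing by replicate number. Deviations of same-numbered libraries over genes correlated at 0.0451, 0.0395 and -0.00582. TTC3 shRNA replicate 3 did not correlate best with its own number. Transcript estimates were not correlated in this way, and the PLOD2 exon share was highest in replicate 1 of both groups. Pairing in the transcript estimates was not tested. With the replicate number as a block 6929 genes and 7 members passed. No transcript passed with the block (0 by edgeR, 8897 at an unadjusted p below 0.05), against 9143 by DESeq2 without one.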
